A study of Mus musculus with 12 samples.

Results

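Gene expression in the wild-type (WT) newborn mouse lung was described from 6 arrays, 1 per animal, out of the 12 arrays of the series. The members were chosen by their genotype label alone, as the lungs labelled wildtype, and they carry the animal numbers 142, 177, 179, 182, 187 and 188. All 6 came from mice of the C57/Bl6 strain, aged 0-6 h after birth by the labels and no more than 12 h by the study's methods. The other 6 arrays were of lungs deficient in cavin-1, a coat protein of caveolae, to which the WT mice were littermate controls, and no value of those lungs is given here. Neither litter nor sex of the animals was labelled, and no allele or treatment was stated for the WT group.

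The newborn mouse lung is in the saccular stage, in which thin-walled sacs lined by alveolar type 1 and type 2 cells lie against a growing capillary bed. Type 2 cells make surfactant, type 1 cells form the gas exchange surface, and club and ciliated cells line the airways. At birth the epithelium changes from secreting liquid to absorbing it, under the influence of glucocorticoids and catecholamines. Caveolae, the flask-shaped membrane pits built from caveolins and cavins, are abundant in lung endothelium and type 1 cells.

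Each array measured 45281 probes as a mean bead intensity, of which 34885 were assigned to 1 gene, giving 19057 genes. Median raw intensity lay between 97.0 and 121.5, and between 45.3% and 48.2% of probes were called detected (detection p under 0.05). A level below is the log2 of the background-corrected and quantile-normalized intensity of a gene. Probes differ in brightness for the same amount of RNA, so levels and ranks order probe signals and do not order transcripts. The array of WT 142 stood apart from the rest: it correlated with the other 5 at r = 0.971 to 0.976 over detected genes, against 0.978 to 0.989 among the other 10 pairs. Calls and list ranges that WT 142 changed by over 1.5 times are also given without it where they are described.

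Of the 19057 genes, 10503 (55.1%) were detected on all 6 WT arrays, 2672 on 1 to 5 arrays and 5882 on none. A gene counted as detected on all 6 where at least 1 of its probes was. Of these 10503 genes, 22.8% were highest and 25.6% lowest in WT 142. In WT 177 21.0% were highest, in WT 187 10.4% were highest, and in WT 188 15.1% were lowest. Counts of list members highest or lowest in a lung are to be read beside these shares. The tissue label was checked against marker lists, and 68 of 76 lung epithelial genes (89.5%), 39 of 42 endothelial genes (92.9%) and 47 of 61 mesenchymal genes (77.0%) were detected on all 6. All 15 alveolar type 2 genes, all 15 alveolar type 1 genes, all 15 pan-endothelial genes, all 14 fibroblast genes and all 10 pericyte genes were detected on every array. Of the markers of neighbouring tissues, 34 of 76 (44.7%) were, with 11 of 14 (78.6%) in the cardiac muscle list. The share detected therefore does not separate lung from adjoining tissue. Of the markers of tissues that lie outside the chest, 5 of 32 (15.6%) were detected on every array. None of 10 photoreceptor genes was detected on all 6, and 2 of 11 male germ cell genes were, *Odf2* and *Spata18*. In the pancreas list, 3 of 11 were detected on all 6, *Cpa1*, *Cela1* and *Amy2a5*. A further 7 were detected on none, among them *Prss2*, *Cel* and *Ctrb1*.

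**Figure D1:**
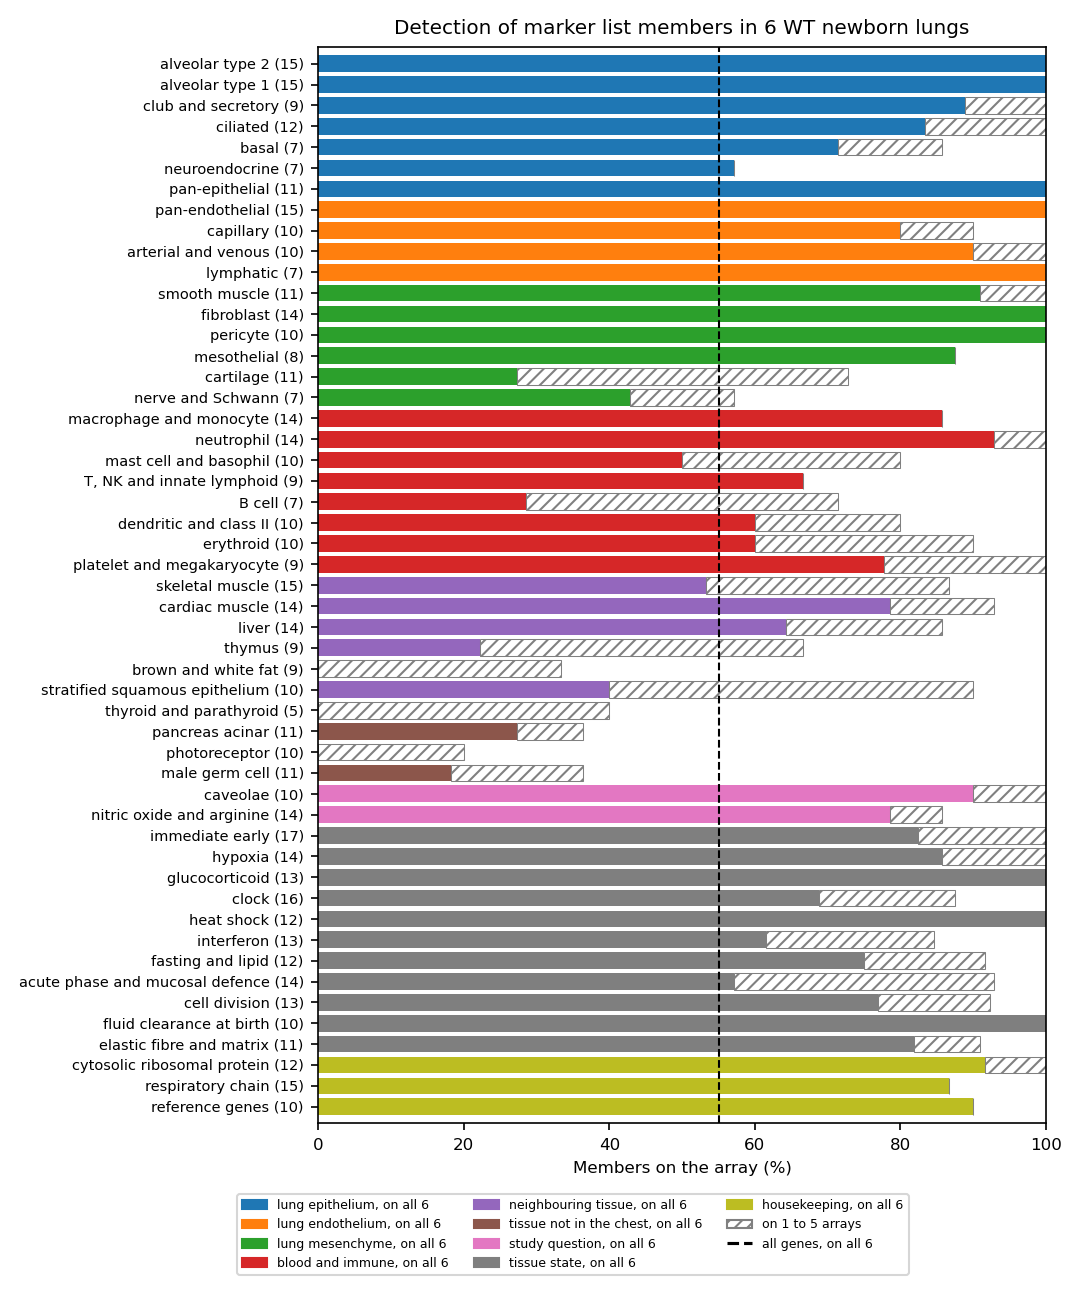
Share of the members of each marker list that were detected in WT newborn lung. The x axis is the percent of the list's genes on the array (number in brackets), filled bars are genes detected on all 6 arrays, coloured by kind of list, hatched bars are genes detected on 1 to 5 arrays, and the dashed line is the 55.1% of all genes detected on all 6. The alveolar, pan-epithelial, pan-endothelial, lymphatic, fibroblast and pericyte lists reach 100%, and the photoreceptor, fat and thyroid lists stay at 0 for all 6 arrays.

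The brightest signals came from ribosomal, haemoglobin, mitochondrial and secretory epithelial transcripts. The 20 genes of highest mean level were *Rplp1*, *Rps29*, *Fth1*, *CYTB*, *Rps4x*, *Rps12*, *Eef1a1*, *Rpl37*, *Hbb-bs*, *Rpl9*, *Scgb1a1*, *Sftpd*, *Rpl41*, *Hba-a1*, *Tmsb4x*, *Hbb-bt*, *Ubb-ps*, *Rpl10a*, *Rps7* and *ND4*. Among them, *Scgb1a1* encodes the club cell secretory protein and *Sftpd* encodes surfactant protein D. Of the 100 brightest genes, 26 encoded cytosolic ribosomal proteins, 4 were mitochondrially encoded, 3 were globins and 8 belonged to the epithelial lists. Membership was fairly stable, since 70 of the 100 were among the brightest 100 on each of the 6 arrays. Ribosomal proteins, globins and *Ubb-ps* have near-identical copies in the genome, so their probes may read several genes and the assignment to 1 symbol is uncertain.

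Alveolar type 2 genes were bright and steady. The mean level of the 15 genes ranged from 11.92 in WT 182 to 12.06 in WT 142, a spread of 0.14. *Sftpc*, the surfactant protein C gene that defines type 2 cells, had its lowest level of 13.94 in WT 182, a median of 14.18 and its highest of 14.35 in WT 177. *Sftpb*, for surfactant protein B, ranged from 13.03 to 13.18 with a median of 13.12. Of these genes, 11 were among the brightest 5% of all genes, including the chemokine *Cxcl15*, the lipid transporter *Abca3* and the phosphate transporter *Slc34a2*. The member with the widest range was *Dlk1*, a Notch-family ligand of fetal tissues, which lay at 12.53 in WT 142 and between 13.99 and 14.25 in the other 5 lungs.

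Alveolar type 1 genes were also bright. *Hopx*, a transcriptional cofactor of type 1 cells, ranged from 13.47 to 13.75 with a median of 13.65, and *Ager*, the receptor for advanced glycation end products, from 12.74 to 13.43 with a median of 12.93. The list mean was 11.60 in WT 142 and 11.07 to 11.28 in the others. Of its 15 members, 8 were highest in WT 142, against 22.8% of all detected genes. *Igfbp2*, which marks maturing type 1 cells, was the most uneven member, at 8.38 in WT 142 and 6.56 to 7.17 elsewhere.

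The 10 ciliated cell genes detected on all arrays, among them *Foxj1*, the transcription factor of ciliogenesis, and *Dynlrb2*, a dynein light chain, had a list mean between 7.99 and 8.17. *Foxj1* itself was dim (4.56 to 5.15, median 5.05), and *Dynlrb2* was among the brightest 5% of genes (11.28 to 11.40). The club and secretory list ranged over 1.09, from 10.38 in WT 188 to 11.47 in WT 142, and over 0.57 without WT 142. In it, *Scgb1a1* stayed between 14.42 and 14.75, whereas the secretoglobin *Scgb3a1* ranged from 7.09 in WT 188 to 9.33 in WT 142 and *Reg3g*, an antimicrobial lectin of mucosal epithelia, from 7.998 in WT 188 to 10.29 in WT 142. Signals at the bright end of the scale are compressed, so the small range of a gene such as *Scgb1a1* cannot be told apart from saturation. Of the pan-epithelial genes, *Krt8* was lowest in WT 142 at 11.93 and lay between 12.59 and 12.87 in the other lungs, and *Nkx2-1*, the lung and thyroid transcription factor, ranged from 12.13 to 12.48.

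The endothelial lists other than the lymphatic were steady. The pan-endothelial mean lay between 10.14 and 10.30, the arterial and venous mean between 8.79 and 8.90, and the capillary mean between 9.86 and 10.08, a range of 0.23, or 0.14 without WT 142. *Cldn5*, a tight junction claudin of endothelium, ranged from 11.94 to 12.44 with a median of 12.13. *Pecam1*, an adhesion molecule of endothelium, ranged from 9.85 to 10.18. *Car4*, a carbonic anhydrase of a capillary cell type, was at 11.34 in WT 142 and at 10.04 to 10.39 elsewhere. The lymphatic list was less even, from 8.63 in WT 182 to 9.30 in WT 142, and *Prox1*, the lymphatic transcription factor, ranged from 4.21 to 5.82.

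Mesenchymal lists differed in how much they moved between animals. The pericyte mean ranged over 0.30, from 7.44 in WT 177 to 7.74 in WT 188. The smooth muscle mean ranged from 9.06 in WT 177 to 9.74 in WT 142. Among its contractile genes, *Actg2*, an enteric actin, ran from 11.12 to 12.70 and *Myh11*, smooth muscle myosin, from 7.99 to 9.85, with WT 142 highest and WT 179 lowest for both. In the fibroblast list, the small leucine-rich proteoglycans *Lum* (6.96 in WT 177 to 8.91 in WT 187) and *Dcn* (9.30 in WT 177 to 11.11 in WT 142) were the most uneven, and both were high in WT 142 and WT 187. *Limch1* ranged only from 13.02 to 13.35. Mesothelial genes were highest in WT 142, with a list mean of 9.18 against 8.31 to 8.58 elsewhere, and *Lrrn4*, a mesothelial surface protein, was at 7.18 against 5.01 to 5.69. The cartilage list was thinly detected, with 3 of 11 genes on all arrays, whose mean ranged over 0.19. In bulk RNA, fewer cells of a type and less RNA per cell cannot be told apart.

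Genes of the events at birth were examined as lists. The 10 genes of lung liquid clearance were detected on every array and were steady, with list means of 10.93 to 11.06. The 3 subunits of the epithelial sodium channel, *Scnn1a* (10.96 to 11.21), *Scnn1b* (10.40 to 10.93) and *Scnn1g* (12.30 to 12.58), were detected on every array. The water channel *Aqp1* was lowest in WT 142 at 12.73 and lay between 13.22 and 13.45 in the others. Among 9 detected elastic fibre genes, *Eln*, for elastin, ranged from 9.76 to 10.49 and *Lox*, a lysyl oxidase, from 12.44 to 13.27. Cell division genes, from *Top2a* (7.202 to 7.94) to *Cdk1* (8.08 to 8.54), had list means between 7.44 and 7.79. The hypoxia list mean ranged over 0.42, or 0.24 without WT 142, and its most uneven member was *Adm*, for the vasodilator adrenomedullin, at 5.23 in WT 142 and 6.29 to 7.82 elsewhere.

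Caveolar genes, the targets of the study, varied little apart from the muscle members. *Cav1*, the main caveolin of endothelium, lay between 14.20 and 14.35 with a median of 14.26 and an SD of 0.06 (n = 6). It ranked 26 by mean level, at the bright end, where a small range cannot be told apart from saturation. *Cav2*, its partner, ranged from 10.21 to 10.80. *Cavin1* ranged from 9.87 in WT 177 to 10.30 in WT 187 with a median of 10.05 and an SD of 0.15. Its level merges 2 probes that differ in brightness, at 8.19 to 8.90 and 11.55 to 11.77. *Cavin2* (12.71 to 13.11) and *Cavin3* (10.46 to 10.99) were detected on every array too. The EH-domain protein *Ehd2* of the caveolar neck ranged from 7.07 to 7.48, and *Ehd4* and *Pacsin2* were as even (SD 0.14 and 0.09). The muscle members went with the muscle genes described below. *Cavin4*, the muscle cavin, was at 6.92 in WT 187 and 5.29 to 5.88 elsewhere, and *Cav3*, the muscle caveolin, was detected in WT 142 and WT 187 only, at 4.11 and 4.53. None of the 10 passed the test of variation described below, which 0.231% of all genes passed. In the list of nitric oxide and arginine metabolism, *Ddah1*, which degrades asymmetric dimethylarginine, ranged from 9.62 to 9.97 (SD 0.13), *Arg1*, arginase 1, from 6.99 to 8.04 (SD 0.38), *Arg2*, its mitochondrial isoform, from 8.44 to 10.10 (SD 0.53) and *Nos3*, endothelial nitric oxide synthase, from 7.22 to 8.31 (SD 0.36). *Arg1* was highest and *Arg2* and *Nos3* were lowest in WT 142. None of the 14 passed the test. With so few genes passing, neither count sets these lists apart from other genes.

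The spread between lungs depended on signal. Over the 10503 detected genes the median SD was 0.21, a factor of 1.16. It was 0.13 in the brightest 1000 genes and 0.37 in the dimmest 1000. A total of 884 genes had an SD under 0.1, 673 an SD over 0.5 and 47 an SD over 1. Each gene's variance over the 6 lungs was tested against the variance expected at its mean level, the trend that limma fits over all genes, with p-values adjusted by the Benjamini-Hochberg method over 19057 genes. At an adjusted p under 0.05, 44 genes (0.231%) varied more than the trend, and 1018 (5.34%) had an unadjusted p under 0.05. Of the 44 genes, 32 were detected on all 6 arrays and 12 on some of them. With 1 array per mouse, a difference between animals and a difference between dissections or arrays cannot be told apart. Without WT 187, 18 genes (0.0945%) were called, all of them among the 44, and without WT 142, 52 genes (0.273%) were called, of which 35 were.

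**Figure D2:**
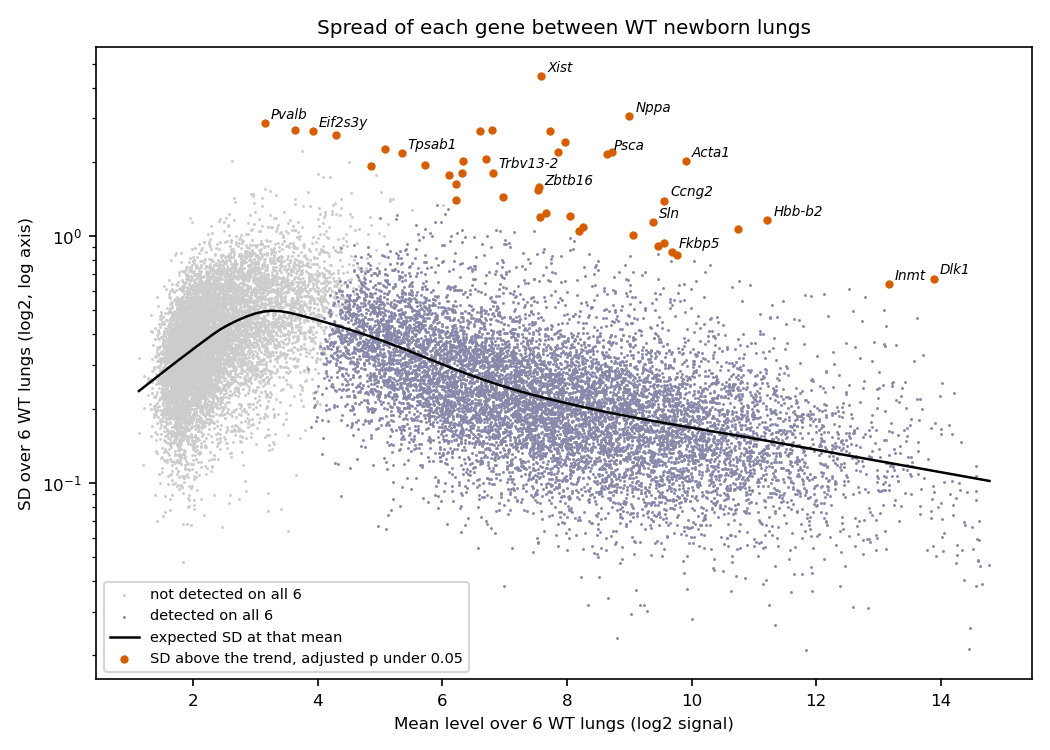
Standard deviation over the 6 WT lungs (y axis, log2 units on a log scale) against mean level (x axis, log2 signal) for 19057 genes. The line is the SD expected at each mean, and the orange points are the 44 genes whose variance exceeded the trend at an adjusted p under 0.05, led by *Xist* (SD 4.47) and *Nppa* (SD 3.08).

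**Figure D3:**
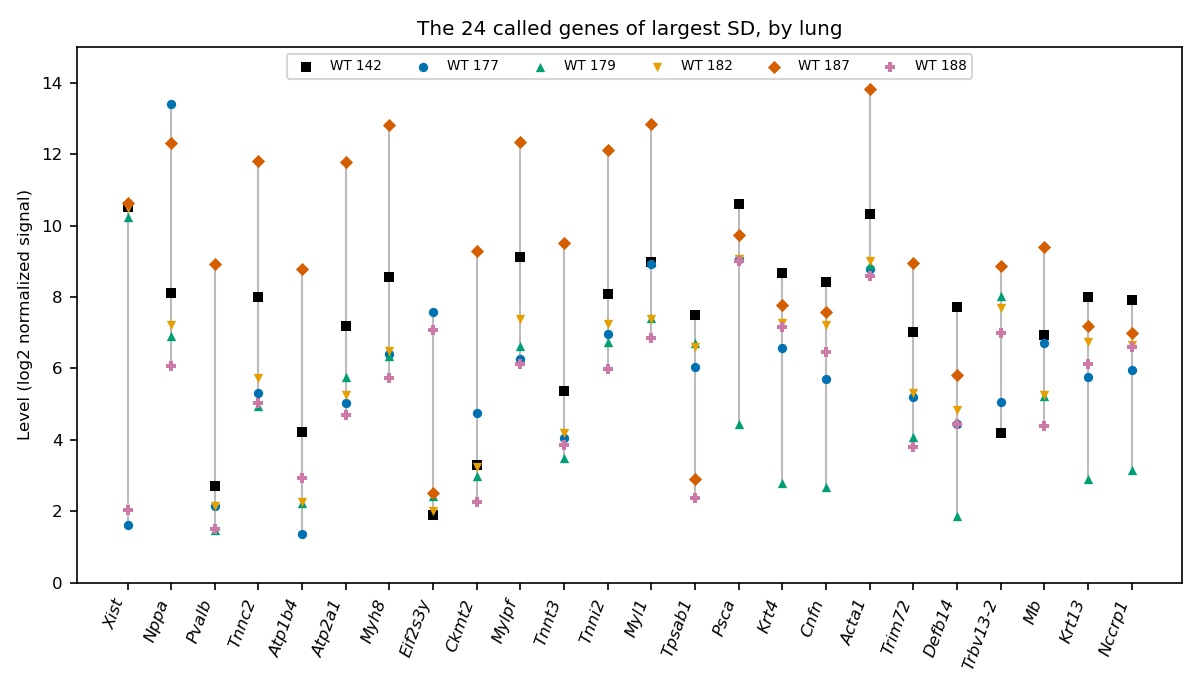
Level (y axis, log2 normalized signal) of the 24 called genes of largest SD in each of the 6 WT lungs, 1 symbol per lung, with grey bars from lowest to highest. WT 187 lies far above the rest for *Myh8*, *Tnnc2*, *Mylpf* and the other muscle genes, and WT 179 far below the rest for *Psca*, *Krt4*, *Krt13* and *Cnfn*.

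The list with the widest range among the 48 with a level was skeletal muscle. Of the 15 genes of the list on the array, 10 were called: *Acta1*, *Mylpf*, *Myl1*, *Myh8*, *Tnnc2*, *Tnni2*, *Tnnt3*, *Ckm*, *Eno3* and *Pvalb*. All 10 were highest in WT 187. The mean of the 8 members detected on all arrays was 11.95 in WT 187, 8.56 in WT 142 and 6.52 to 7.16 in the other 4 lungs. *Acta1*, the actin of skeletal muscle thin filaments, was at 13.82 in WT 187, with a median of 8.95 and a lowest level of 8.59 (SD 2.02, adjusted p = 0.000419). *Myh8*, perinatal myosin heavy chain, was at 12.80 there, with a median of 6.46 and a lowest level of 5.73. *Pvalb*, the calcium buffer of fast fibres, was detected in WT 187 only, at 8.93. The fast troponin subunits *Tnnc2* and *Tnni2* exceeded the mean of the other 5 lungs by 6.02 and 5.11 log2 units. WT 142 was the lung of next highest level for *Acta1* (10.33), *Mylpf* (9.12) and *Tnnc2* (7.995). The muscle regulator *Myod1* and the thin filament ruler *Neb* were not detected on any array, and *Myog*, for myogenin, lay between 3.63 and 4.62 with no excess in WT 187. A further 8 called genes outside the list are muscle genes whose merged level was also highest in WT 187. They are the calcium pump *Atp2a1*, the membrane repair protein *Trim72*, myoglobin (*Mb*), telethonin (*Tcap*), *Tpm2*, *Cox6a2*, *Atp1b4* and *Ckmt2*. For *Mylpf* and *Myl1*, which had 2 detected probes each, the probes followed each other over the lungs (r = 0.993 and 0.988). For *Tpm2* they did so less (r = 0.433). Its brighter probe was highest in WT 142 (10.77), with WT 187 at 10.09, and so lacked the pattern. Its dimmer detected probe was at 10.08 in WT 187 and 4.39 to 7.05 elsewhere. With WT 187 left out, none of the 10 list members was called.

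Promoter sequences of RefSeq (build GRCm38.p6) are shown for *Acta1* and *Tnnc2*, whose probes had the pattern of WT 187, and for *Nppa*, which was high in WT 177 as well. Each runs from 250 bases before to 50 bases after the start of the gene, 5′ to 3′, with the lower case broken by capitals where a motif was found. Motifs were searched on both strands. They were the E-box bound by myogenic factors, CANNTG, the core promoter element TATAAA, which is bound by the general transcription machinery, the M-CAT element of muscle promoters, CATTCC, and the CArG box of serum response factor. *Acta1* lies on chr8:123894726-123895025 (minus strand), *Tnnc2* on chr2:164779685-164779984 (minus strand) and *Nppa* on chr4:148000472-148000771 (plus strand).
Acta1: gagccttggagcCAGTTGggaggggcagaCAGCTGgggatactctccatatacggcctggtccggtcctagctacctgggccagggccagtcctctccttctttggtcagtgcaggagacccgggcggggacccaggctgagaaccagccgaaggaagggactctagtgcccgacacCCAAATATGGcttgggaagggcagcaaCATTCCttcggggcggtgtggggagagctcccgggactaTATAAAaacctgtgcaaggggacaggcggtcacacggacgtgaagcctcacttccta
Tnnc2: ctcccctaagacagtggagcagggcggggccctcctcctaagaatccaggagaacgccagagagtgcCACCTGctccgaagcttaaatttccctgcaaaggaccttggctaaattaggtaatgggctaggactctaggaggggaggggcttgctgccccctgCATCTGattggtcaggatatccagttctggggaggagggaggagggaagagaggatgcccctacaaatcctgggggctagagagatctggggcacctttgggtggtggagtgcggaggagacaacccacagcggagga
Nppa: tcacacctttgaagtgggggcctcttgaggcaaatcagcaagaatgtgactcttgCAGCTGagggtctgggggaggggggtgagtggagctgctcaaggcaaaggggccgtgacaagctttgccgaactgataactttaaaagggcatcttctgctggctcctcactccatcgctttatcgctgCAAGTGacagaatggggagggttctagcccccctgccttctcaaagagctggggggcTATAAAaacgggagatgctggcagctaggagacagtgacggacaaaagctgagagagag

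In *Acta1*, E-boxes begin at -238 and -221, the CArG box at -73, the M-CAT element at -46 and TATAAA at -7, counted from the RefSeq start. *Tnnc2* holds E-boxes at -183 and -88 and none of the other motifs. *Nppa* holds E-boxes at -195 and -66 and TATAAA at -9. Of the 10 called list members, 8 had a promoter in the table, and all 8 held an E-box, which 72.3% of 32851 promoters also held. TATAAA was found in 3 of the 8 and in 13.6% of all promoters, CATTCC in 3 and in 14.7%, and the CArG box in *Acta1* alone and in 1.63%. A match is a description of letters and not of a binding site.

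Of the heart genes, *Nppa* and *Sln* were high in WT 177 and WT 187. *Nppa*, for the atrial natriuretic peptide, was at 13.41 in WT 177 and 12.30 in WT 187, against 6.06 to 8.12 in the other 4 lungs (median 7.67, SD 3.08, adjusted p = 6.02e-05). *Sln*, sarcolipin of atrial and skeletal muscle, was at 11.14 in WT 187 and 10.36 in WT 177 against 8.07 to 8.99. *Myl2*, the ventricular and slow-muscle regulatory light chain, was highest in WT 187 (10.22) and next in WT 142 (8.48), the order of the skeletal muscle genes, and was low in WT 177 (6.17). These were the 3 called members of 14. Of the 14 heart genes, 11 were detected on every array. Several had narrower ranges, such as *Actc1*, cardiac actin (11.03 to 11.89), *Myl4* (11.61 to 12.75) and *Myl7* (9.92 to 10.94), the atrial light chains, and *Myh6*, the alpha myosin heavy chain (7.76 to 8.99). *Myh7*, the beta myosin heavy chain, was not detected on any array. The list mean ran from 7.70 in WT 188 to 9.72 in WT 187, and to 9.03 in WT 177 without WT 187. Of the 11 detected members, 7 were lowest in WT 188, against 15.1% of all detected genes. In WT 187 7 were highest, against 10.4%.

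Liver genes also differed between lungs. The mean of 9 detected members was lowest in WT 188 (6.78) and WT 177 (6.85) and highest in WT 187 (8.50), with the other 3 lungs between 7.81 and 7.98. *Afp*, alpha-fetoprotein, ranged from 5.52 in WT 188 to 7.65 in WT 142 and *Apoa2*, an apolipoprotein, from 5.22 in WT 177 to 7.74 in WT 187. *Ahsg*, *Ttr*, *Fga* and *Ambp* were likewise highest in WT 187, and *Fga*, *Ttr* and *Apoa2* lowest in WT 177. *Trf*, for transferrin, ran against the rest, at 11.64 in WT 142 and 12.92 to 13.11 in the others. The probe of *Alb*, for albumin, and that of *Fgb* were detected on no array. None of the 14 passed the test of variation. The skeletal muscle, heart and liver lists all had their highest mean in WT 187 and their lowest in WT 188. The part of tissue from outside the lung in these differences was not tested.

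**Figure D4:**
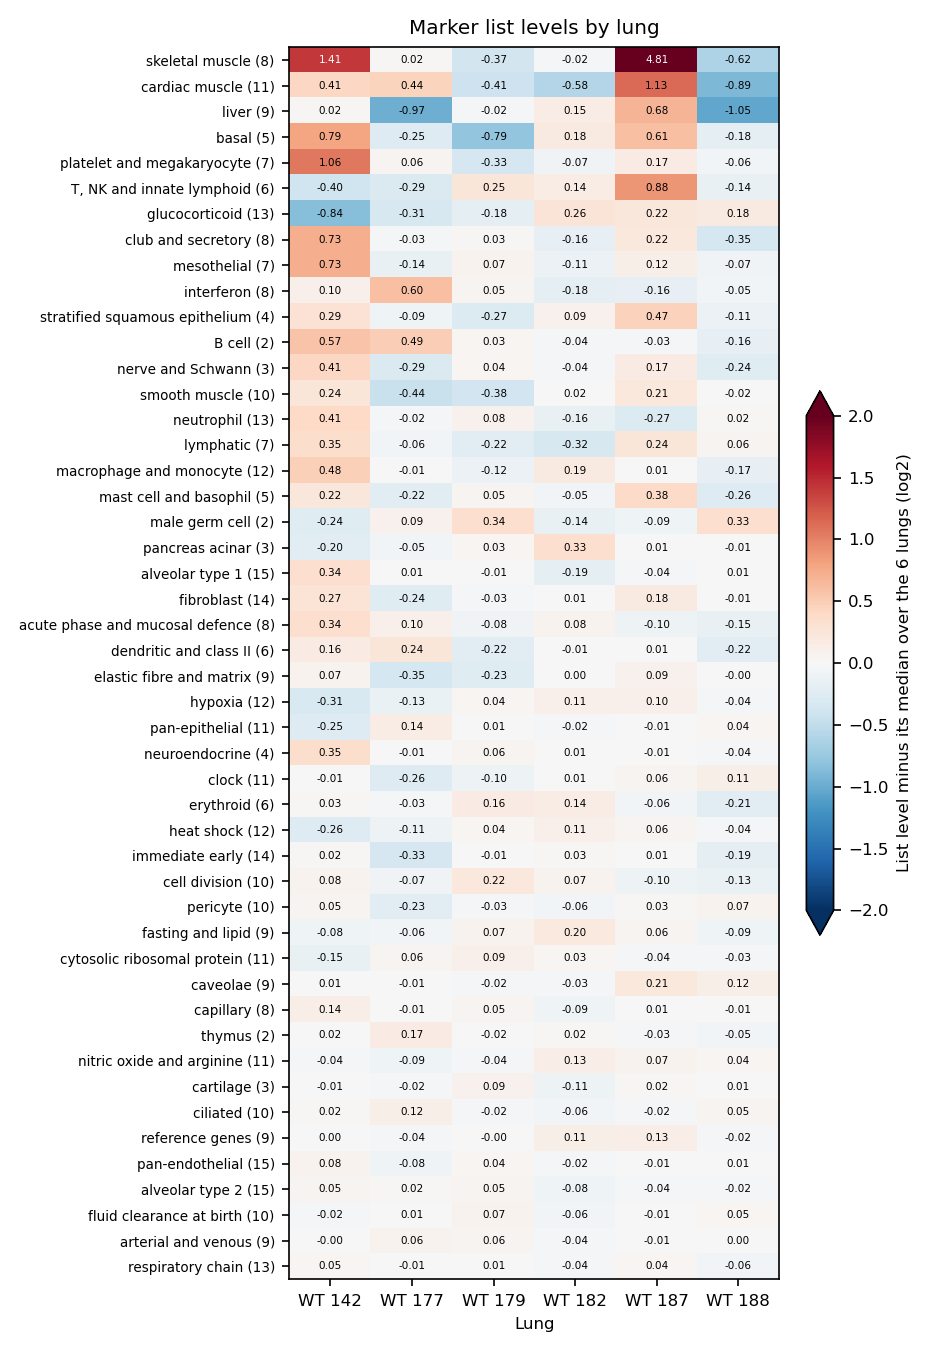
Mean level of each marker list in each WT lung minus the median of that list over the 6 lungs (colour and printed value, log2 units, colour capped at 2), ordered by range, with the number of detected members in brackets. Skeletal muscle stands 4.81 above its median in WT 187, and the lists at the bottom, of respiratory chain, arterial and venous, liquid clearance and alveolar type 2 genes, stay within 0.1 of theirs.

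A set of called epithelial genes had its lowest level in WT 179. Of these, *Krt4* and *Krt13* belonged to the stratified squamous list and *Krt17* to the basal list, and *Psca*, *Cnfn*, *Nccrp1*, *Upk3bl* and *Defb14* belonged to no list and were picked for this pattern. *Psca*, prostate stem cell antigen, was at 4.44 in WT 179 and 9.02 to 10.59 in the other 5 lungs (SD 2.15, adjusted p = 0.000445). *Krt4* and *Krt13*, the keratin pair of non-keratinized squamous epithelium such as the oesophagus, were undetected in WT 179 and highest in WT 142 (8.68 and 8.01). *Cnfn*, cornifelin, and *Nccrp1* were undetected there too (2.67 and 3.16), and their next lowest levels were 5.71 and 5.95, both in WT 177. *Krt17*, a basal cell keratin, was at 5.73 in WT 179 and at 8.94 in WT 187, and *Upk3bl*, a uroplakin-like gene, lay at 6.34 against 7.83 to 9.40. *Defb14*, a beta-defensin, was undetected in WT 179 and highest in WT 142 (7.72). Of the basal list, *Krt15* was lowest in WT 179 too (8.83, with 9.58 to 10.47 elsewhere) and *Krt5* was detected on no array. Of the 4 stratified squamous members detected on all arrays, 1 was lowest in WT 179, *Sprr1a* (4.51, highest 6.40 in WT 142). *Krt10* (9.28 to 9.64) and *Krtdap* (4.96 to 6.28) were lowest in WT 188 and *Lor* (6.23 to 7.38) in WT 142. With WT 179 left out, 35 genes were called, all among the 44, and *Psca*, *Krt4*, *Krt13*, *Krt17*, *Cnfn*, *Nccrp1*, *Upk3bl*, *Defb14* and *Reg3g* were not. Some of these calls depended on other lungs too. *Krt17*, *Upk3bl*, *Defb14* and *Reg3g* were also not called without WT 187, *Defb14* without WT 142 and *Reg3g* without WT 188, its lowest lung.

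**Figure D5:**
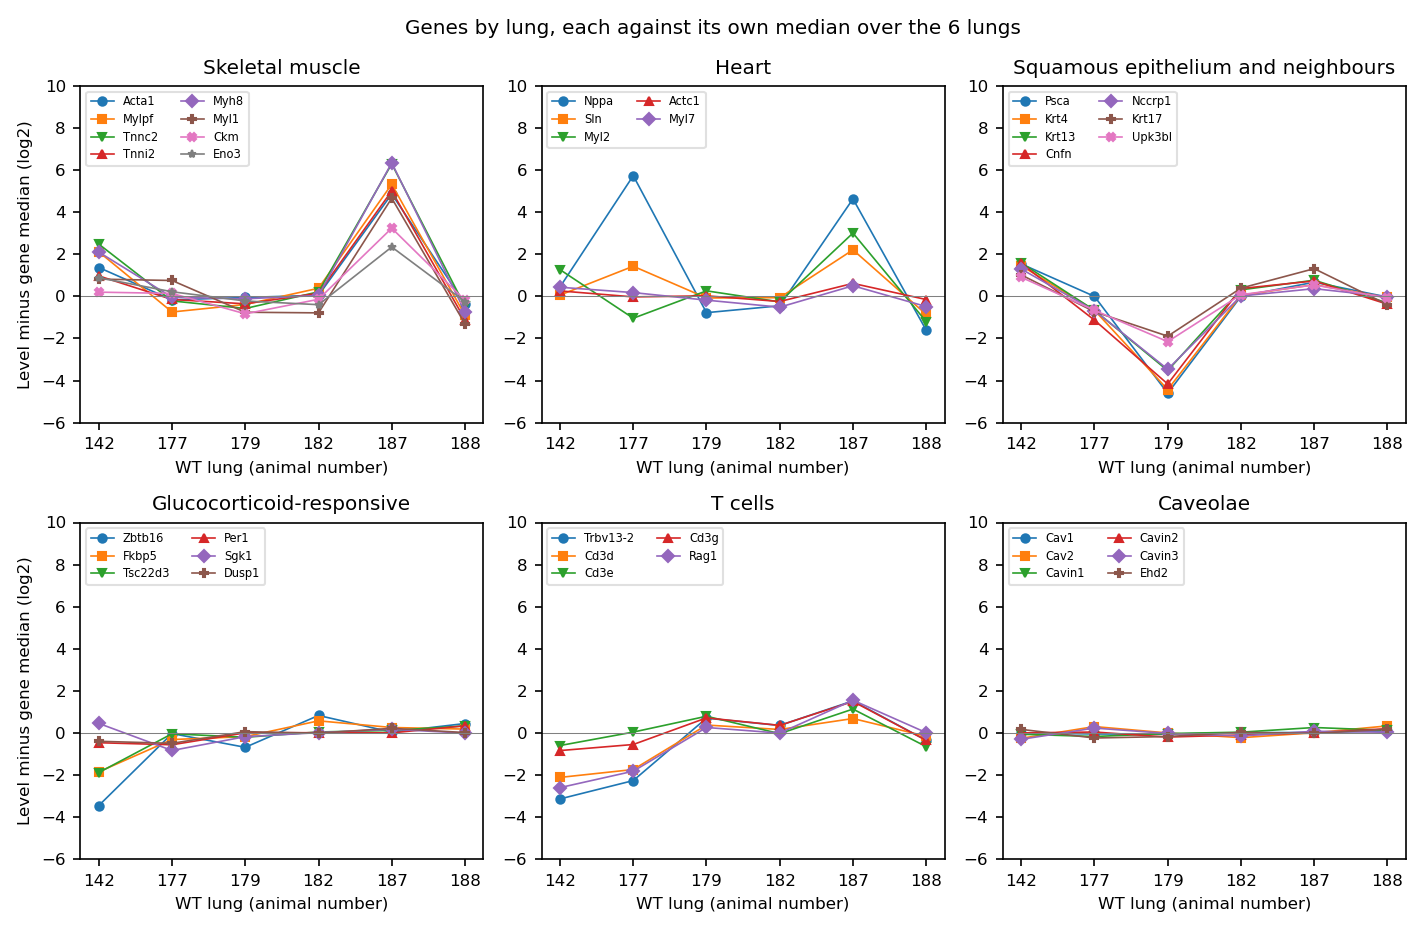
Level of single genes in each WT lung minus the gene's own median over the 6 lungs (y axis, log2 units; x axis, animal number), in panels of skeletal muscle, heart, lining epithelium, glucocorticoid-responsive, T cell and caveolar genes. Muscle genes peak in WT 187, *Nppa* in WT 177 and WT 187, epithelial genes dip in WT 179, *Zbtb16*, *Fkbp5* and *Tsc22d3* dip in WT 142, T cell genes peak in WT 187, and caveolar genes stay flat.

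WT 142 differed from the other 5 lungs in many genes by moderate amounts. In it, 217 detected genes lay more than 1 log2 unit above the mean of the other 5 and 159 lay as far below, against 15 to 78 above and 27 to 71 below in each of the other lungs. The list of glucocorticoid-responsive genes was low in WT 142, with a mean of 9.65 against 10.18 to 10.75. Of its 13 members, 7 were lowest there, against 25.6% of all detected genes. *Zbtb16*, a zinc finger gene induced by glucocorticoids, was at 4.56 in WT 142, with a median of 8.02 and a highest level of 8.84 (adjusted p = 0.00805). *Fkbp5*, the co-chaperone of the glucocorticoid receptor, was at 8.06 against 9.60 to 10.49 (adjusted p = 0.0433). *Tsc22d3*, for the glucocorticoid-induced leucine zipper, was at 6.13 against 7.81 to 8.35 and was not called. *Klf9* and *Pdk4* were lowest in WT 142 as well, at 11.81 and 7.83. The kinase gene *Sgk1* ran the other way and was highest in WT 142 (13.63, lowest 12.35 in WT 177).

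Other called genes were low in WT 142 too. *Scara5*, a ferritin receptor, was at 8.62 there and 10.74 to 11.52 elsewhere, *Adamdec1*, a metalloprotease, at 5.29 against 7.76 to 8.99, and *Tmem213* at 7.09 against 8.94 to 9.80. *Inmt*, indolethylamine methyltransferase of lung stroma, was at 11.91 against 13.21 to 13.68, and its 2 probes correlated at r = 0.977. *Ccng2*, cyclin G2, was low in WT 142 (7.60) and WT 177 (7.99) and lay between 10.09 and 10.73 in the other 4. *Slc25a37*, mitoferrin of developing red cells, was high in WT 142, at 11.39 against 8.98 to 9.74. Without WT 142, *Zbtb16*, *Fkbp5*, *Scara5*, *Adamdec1*, *Tmem213*, *Inmt*, *Dlk1*, *Slc25a37* and *Defb14* were not called. Of these, *Fkbp5* was also not called without WT 182, WT 187 or WT 188, and *Slc25a37* without WT 187 or WT 188. The same held for *Adamdec1* without WT 188 and for *Defb14* without WT 179 or WT 187.

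Of the blood and immune lists, the platelet, macrophage, neutrophil and B cell lists had their highest mean in WT 142, the T cell list its lowest, and the erythroid, mast cell and dendritic lists were highest in WT 179, WT 187 and WT 177. The B cell mean rested on 2 of 7 genes. The erythroid mean was nearly as high in WT 182 (9.75) as in WT 179 (9.76), where 0 of its 6 detected members were highest. Over all detected genes, 22.8% were highest in WT 142. All 7 detected platelet and megakaryocyte genes were highest there, with a list mean of 8.81 against 7.42 to 7.92. *Pf4*, platelet factor 4, was at 11.51 against 10.49 to 10.74 and *Tubb1*, platelet tubulin, at 9.79 against 8.13 to 8.67. Of 12 detected macrophage and monocyte genes, 7 were highest in WT 142, including *Marco*, a scavenger receptor (6.94 against 4.77 to 5.70), and *Mrc1*, the mannose receptor (10.003 against 8.27 to 8.98). *Ly6c1*, also expressed by endothelium, was lowest there, at 11.30 against 11.67 to 11.73. Of 13 detected neutrophil genes, 8 were highest there, while *Mmp8*, neutrophil collagenase, was lowest (4.14, highest 6.21 in WT 188). The cytokine genes *Cxcl2* and *Il6* were detected in WT 142 alone, at 5.08 and 4.54, and *Cxcl1* was at 6.82 against 4.44 to 5.35. None of these blood and cytokine genes passed the test of variation, and the part of blood in the other differences of WT 142 was not tested.

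Red cell genes did not move as 1 group. *Hba-a1*, alpha globin, lay between 14.45 and 14.60, and *Alas2*, the erythroid enzyme of haem synthesis, was at 13.68 in WT 142 and 11.92 to 12.65 elsewhere. *Hbb-b2*, a beta globin, was called (SD 1.16, adjusted p = 0.00388), with 9.65 in WT 187, 9.91 in WT 179 and 11.57 to 12.46 in the other 4 lungs. The beta globins *Hbb-bs* (14.53 to 14.62) and *Hbb-bt* showed no such split, and with near-identical sequences it is uncertain which transcript each probe reads. *Hbb-y*, an embryonic beta-like globin, ranged from 5.09 in WT 142 to 7.87 in WT 182.

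T cell genes were dim. *Trbv13-2*, a T cell receptor beta variable segment, was called, at 4.20 in WT 142, 5.07 in WT 177 and 6.99 to 8.86 in the other 4 (adjusted p = 0.00711). *Cd3d*, *Cd3g* and *Cd3e*, subunits of the T cell receptor complex, were highest in WT 187 (6.40, 6.76 and 5.81), and *Cd3d* and *Cd3g* were lowest in WT 142 (3.60 and 4.42). *Rag1*, the recombinase of developing lymphocytes, was detected on 4 arrays with a highest level of 7.004 in WT 187. Of the 9 thymus genes on the array, 2 were detected on all 6 arrays and 4, including *Rag1*, on 1 to 5. The other 3, *Dntt*, *Rag2* and *Foxn1*, were detected on no array, and *Cd4* and *Cd8a* of the T cell list were not detected either. In the mast cell list, *Tpsab1*, a tryptase, was undetected in WT 187 and WT 188 and lay between 6.04 and 7.49 in the other 4 (SD 2.17, adjusted p = 0.0166). *Cpa3*, a mast cell carboxypeptidase, did not follow it, with 8.48 in WT 187 and 7.30 in WT 188.

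The interferon list was highest in WT 177, with a mean of 8.68 against 7.91 to 8.19. Of its 8 detected members, 6 were highest there, against 21.0% of all detected genes. *Isg15*, the ubiquitin-like modifier, was at 9.63 in WT 177 and 8.50 to 9.03 elsewhere, whereas *Rsad2*, viperin, was highest in WT 142 (12.38). Among clock genes, *Arntl* was lowest in WT 142 (8.08 against 8.97 to 9.26) and *Dbp*, an output gene of the clock, highest (9.79 against 7.71 to 8.40). *Nr1d1* was detected on 2 arrays, at 4.91 in WT 142 and 4.66 in WT 188. Of immediate early genes, *Egr1* was highest in WT 142 (10.79, lowest 9.66 in WT 177) and *Fos* lowest there (10.41, highest 11.72 in WT 179). None of the genes in these 3 lists was called.

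*Xist*, *Eif2s3y* and *Kdm5d* split the lungs without overlap, and the merged level of *Uty* did not. *Xist*, the RNA that silences an X chromosome, was detected on 4 arrays, at 10.53 in WT 142, 10.24 in WT 179, 10.48 in WT 182 and 10.64 in WT 187, and was at background in WT 177 (1.60) and WT 188 (2.04). *Eif2s3y*, a Y-linked translation factor, was detected in WT 177 (7.58) and WT 188 (7.08) only. *Kdm5d*, a Y-linked demethylase, was at 5.42 and 4.77 in the same lungs and at 1.64 to 2.64 in the others. Both levels merge 2 probes that differ in brightness. In WT 177 and WT 188 the *Eif2s3y* probes were at 10.82 and 10.67 and at 4.35 and 3.49. The brighter *Kdm5d* probe was at 8.33 and 7.85 there, and the other was detected on no array. *Xist* had the largest SD of all called genes (4.47, adjusted p = 2.50e-05) and all 4 of its probes gave the same split. *Uty* had 4 probes, and their median lay between 1.47 and 1.96 with no split. Of its probes 1 was detected, in all lungs but WT 142. That probe did give the split, at 6.40 in WT 188 and 5.69 in WT 177 against 3.39 to 4.09 elsewhere. By *Xist* and *Eif2s3y*, the WT lungs held both patterns in unequal number, 4 and 2.

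Lists of general cell function moved little in their means. The respiratory chain list ranged over 0.10 between lungs, the reference genes over 0.17 and the ribosomal proteins over 0.24 (0.13 without WT 142). No member of the 3 lists was called, where 0.231% of all genes were. *Rplp1*, the brightest gene, lay between 14.71 and 14.81, where quantile normalization fixes the top values, so its range is no measure of steadiness. Single members moved more than the means, such as *Rpl13a* (9.59 in WT 142 to 10.45 in WT 179), *Cox6c*, a cytochrome oxidase subunit (12.40 in WT 177 to 13.15 in WT 142), and *Tbp*, the TATA-binding protein (7.12 in WT 142 to 7.72 in WT 182). *Rpl10a*, among the brightest genes, was lower in WT 142 (14.24) than elsewhere.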

How the data were processed

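Total RNA was extracted from frozen newborn lungs, labelled with biotin and hybridised to Illumina MouseWG-6 v2 BeadChips, 1 array per mouse. The authors deposited, from GenomeStudio, a mean bead intensity and a detection p-value for each probe, without normalization. Here intensities were background-corrected with the normal-exponential model of RMA, quantile-normalized over all 12 arrays and taken to log2. The KO arrays entered at that step only. Probes assigned to 1 gene were merged by the median of those detected (detection p under 0.05) on all 6 WT arrays, or of all where none was. The 18 probes with several genes and 10378 with none were left out. Depth does not apply to arrays, and 6 arrays limit the precision.

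The variance of each gene over the 6 lungs (5 degrees of freedom) was set against limma's robust trend of variance on mean level (limma 3.58.1, R 4.3.3) in an upper-tail F test, adjusted by Benjamini-Hochberg over 19057 genes. The p-values measure how far a gene's spread between these 6 lungs exceeded that trend, and not the size of the spread itself. The procedure was tested on simulated data, where it found 3 of 67 genes planted at 3 times the SD expected at their mean. It found 26 of 67 at 5 times and 64 of 66 at 10 times, and 4 of its 97 calls were false. A gene that did not pass the test may therefore still vary. Figures were drawn with matplotlib 3.10.9.

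Genes were named by rule: the 20 of highest mean level, the 20 called genes of largest SD, up to 4 detected members of each list (the 2 brightest and the 2 of largest SD), all caveolar and sex-linked members, and all called list members. The other 14 called genes and the further list members in the text were chosen after their values were seen. Members and lists were chosen with earlier results of these data known. Alternatives were other background corrections, scalings, probe merges, detection limits and variance priors, the authors' processed values, and leaving out lungs.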

Additional observations from a re-analysis of the deposited data

Results flagged for a closer look

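A lung was set apart in a gene where its gap to the nearest other lung exceeded the share of the range that Dixon's test allows for 6 samples, which chance passes in about 1 of 20 groups. This held for 35 of 219 named genes (15.98%), for 6 of 48 lists (12.5%) and for 775 of 10503 detected genes (7.38%). Many named genes were picked for a large SD over these same lungs, so a higher share among them was built in.

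In WT 187 the genes set apart above the other lungs were *Pvalb* (8.93), *Atp2a1* (11.77), *Ckmt2* (9.28), *Tnnt3* (9.52), *Tnni2* (12.11), *Myl1* (12.83), *Acta1* (13.82), *Cavin4* (6.92) and *Ckm* (9.81), all genes of striated muscle, and *Ube2c* (4.93), of the cell division list, was set apart below. In WT 179, *Psca* (4.44) and *Krt4* (2.79) were set apart below.

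In WT 142 the genes set apart above the others were *Igfbp2* (8.38), *Cbr2* (14.15), *Plvap* (11.92), *Car4* (11.34), *Lrrn4* (7.18), *Gpm6a* (8.85), *Pf4* (11.51), *Tubb1* (9.79), *Dbp* (9.79) and *Cftr* (8.72). Those set apart below were *Rpl10a* (14.24), *Dlk1* (12.53), *Fkbp5* (8.06), *Zbtb16* (4.56), *Krt8* (11.93), *Tcf21* (12.01), *Ly6c1* (11.30), *Trf* (11.645), *Odf2* (5.01), *Slc2a1* (9.20), *Arntl* (8.08), *Hspb1* (9.40) and *Aqp1* (12.73). Each value is the level (log2 normalized signal) in the lung named.

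Of the lists, the mean level was set apart above the others in WT 142 for the neuroendocrine (5.66), mesothelial (9.18) and platelet (8.81) genes, in WT 187 for skeletal muscle (11.95), and in WT 177 for the thymus (7.36) and interferon (8.68) lists. The thymus mean rested on 2 of 9 genes and ranged over 0.22 only, and neither gene was itself highest in WT 177. The array of WT 177 had a low share of probes detected, 45.3%. Among probes with no assigned gene, which entered no result above, 2450 of 10378 (23.6%) were detected on all 6 WT arrays.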

How the results depend on the processing

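Of the 44 genes called as variable, all were also called with median scaling of the arrays (99 called) and with the authors' processed values floored at 16 (1354 called), and 43 with the brightest probe of each gene (141 called). Restricting the test to genes detected on all 6 arrays gave 22 genes, and a variance trend without the robust step gave 19, all among the 44 in both cases. Leaving out each lung in turn gave 18 (without WT 187) to 54 genes (without WT 177). Leaving out WT 142 and WT 187 together, an alternative chosen after seeing the data, gave 16 genes, 15 of them among the 44. The count stayed within 1.5 times of 44 with the WT arrays normalized alone (44), no background correction (58), normexp (50) and the median of all probes (31). Of the 30 called genes named by rule, 1, *Nppa*, was called in each of 16 settings, and *Xist* in each of the 15 that included it. The 8 lists with a range over 1 became 3 without background correction and 3 without both lungs, and 6 to 9 when each lung was left out. Genes detected on all 6 arrays numbered 10503, 9750 at a detection p under 0.01, and 6484 where every probe of the gene had to be detected. Of the 20 brightest genes, 17 to 20 were kept under every alternative run. Except as given here, the causes were not tested. No paired analysis was possible because the WT group alone was described and its animal numbers are not shared with another group. Signal limits the dim end, where the SD between lungs is larger.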
